A study of Mus musculus with 4 samples.

Results

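The 8 genes examined in mouse liver make, remodel or take up high-density lipoprotein (HDL): the cholesterol exporter Abca1, the HDL apolipoproteins Apoa1, Apoa2 and Apom, the enzymes Lcat and Pon1, the lipid transfer protein Pltp and the HDL receptor Scarb1. The genes were chosen by name, and each was read from every probe set whose annotation gives that gene alone. This gave 17 of 22626 probe sets, for 8 of 12393 genes. Livers came from ABCA1-transgenic male C57BL/6 mice of 5 to 6 months on the NIH36 diet. There were 4 biological replicates with 1 biotin-labelled array each, called mouse 1 to mouse 4 after the replicate numbers. The labels name neither the promoter that drives the transgene nor the species of its sequence. The study's design sets these animals against wild-type mice. Wild-type arrays were not analysed here, so no effect of the transgene is given and every comparison below is between transgenic mice. Nothing in the labels says more on how the replicates were obtained, so the tests measure the spread between these samples.

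ABCA1 sits in the plasma membrane and hands cholesterol and phospholipid to lipid-poor apolipoprotein A-I, the first step of HDL formation, and the liver is a main site of it. LCAT then esterifies the cholesterol, PLTP moves phospholipid between particles, and apolipoprotein A-II, apolipoprotein M and PON1 ride on the mature particle. SR-BI, the product of Scarb1, takes cholesteryl ester from HDL back into the hepatocyte. Abca1 is also a textbook target of the liver X receptors (LXR), which bind a spaced pair of half-sites as partners of RXR.

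The region before the Abca1 start is shown because the signals below can include transcripts of the endogenous gene, and this is the sequence from which that gene is read. It is the 250 bases upstream of the RefSeq start, chr4:53159896-53160145 on the minus strand of GRCm38.p6, written 5′ to 3′. Capitals mark, in order, a GC box, the E-box, the other GC box, the LXR element and the TATA box.
Abca1: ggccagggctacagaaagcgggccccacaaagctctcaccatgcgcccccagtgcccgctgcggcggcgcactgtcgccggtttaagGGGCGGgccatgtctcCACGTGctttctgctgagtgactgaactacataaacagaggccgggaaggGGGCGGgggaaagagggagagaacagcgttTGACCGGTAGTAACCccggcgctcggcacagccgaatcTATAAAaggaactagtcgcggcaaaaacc
The Apom region is shown as the other member window with a long match, here to the letters bound by HNF1, a hepatocyte transcription factor. It is the 100 bases upstream of the start, chr17:35131802-35131901 on the minus strand, with that match in capitals.
Apom: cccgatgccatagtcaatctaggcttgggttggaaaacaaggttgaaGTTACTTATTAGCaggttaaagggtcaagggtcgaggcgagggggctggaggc
RefSeq windows were found for 7 of the 8 genes, in 8 windows since Apoa2 has 2 starts. Both strands of the 250 upstream bases were searched for letters chosen with these sequences in view. The LXR element was searched as the half-sites GGTTA and GGTCA with 5 bases between them. It was found in Abca1 on the opposite strand, at -67 to -53 from the start, and in 0.0457% of 32851 windows. The HNF1 letters, the half-sites GTTANT and ATTANC with 1 base between them, were found in Apom at -53 to -41 and in 0.0791% of windows. TATAAA was found in Abca1 and in 1 Apoa2 window (12.4% of all windows), CACGTG in Abca1 alone among the members (6.02%), and GGGCGG in Abca1 and Pltp (32.7%). None of these letters overlap each other in Abca1, and a match of letters is a description of the window only.

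The livers gave strong signals for hepatocyte markers and differed in traces of other tissues. The 7 measured hepatocyte markers of 9 listed, among them Alb and Ttr, had log2 signals of 13.31 to 16.06, and their summed signal differed by 1.10-fold between the highest and lowest array. The median signal of all probe sets was 267 to 305. The 6 skeletal muscle markers had a median difference of -4.81 log2 between mouse 1 and the mean of the other 3 mice. The 6 of 7 exocrine pancreas markers measured had a median difference of 2.495 between mouse 2 and the others. Mouse 1 also had the lowest log2 ratio of 3-prime to 5-prime Gapdh control signal, 1.67 against 1.94 to 2.03, and the highest 18S ribosomal RNA control signal, 9.95 against 8.75 to 8.98. In whole liver, fewer cells of a type and less RNA per cell cannot be told apart.

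As a group, the 8 genes differed little from mouse to mouse. The highest and the lowest mouse differed by a median of 1.30-fold over the 17 probe sets, from 1.07-fold for Lcat to 1.58-fold on 1 Pltp probe set. The median standard deviation (SD) between mice was 0.17 log2, against 0.30 over all probe sets and 0.20 over the 11585 whose mean level was at least that of the lowest member. Each probe set's variance was tested with limma against a prior variance fitted to all probe sets as a function of level. No member passed after Benjamini-Hochberg adjustment over all probe sets (0 of 17, adjusted p of 0.98 to 1.00), and 0 of 17 had an unadjusted p under 0.05. Over all probe sets 0% passed, and 3.71% had an unadjusted p under 0.05. The lowest adjusted p of any probe set was 0.25 (limma). The muscle marker Myh1, with an SD 12.3 times the prior, had that value and did not pass. With 4 arrays the test could thus call only very large spreads. A count of 0 of 17 therefore does not show that the members were even. SDs ran from 0.32 times the prior for Lcat to 2.05 times for Apoa2, and 9 of 17 lay under the prior, as did 52.4% of all probe sets. The members thus spread about as much as other probe sets of their level.

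**Figure D1:**
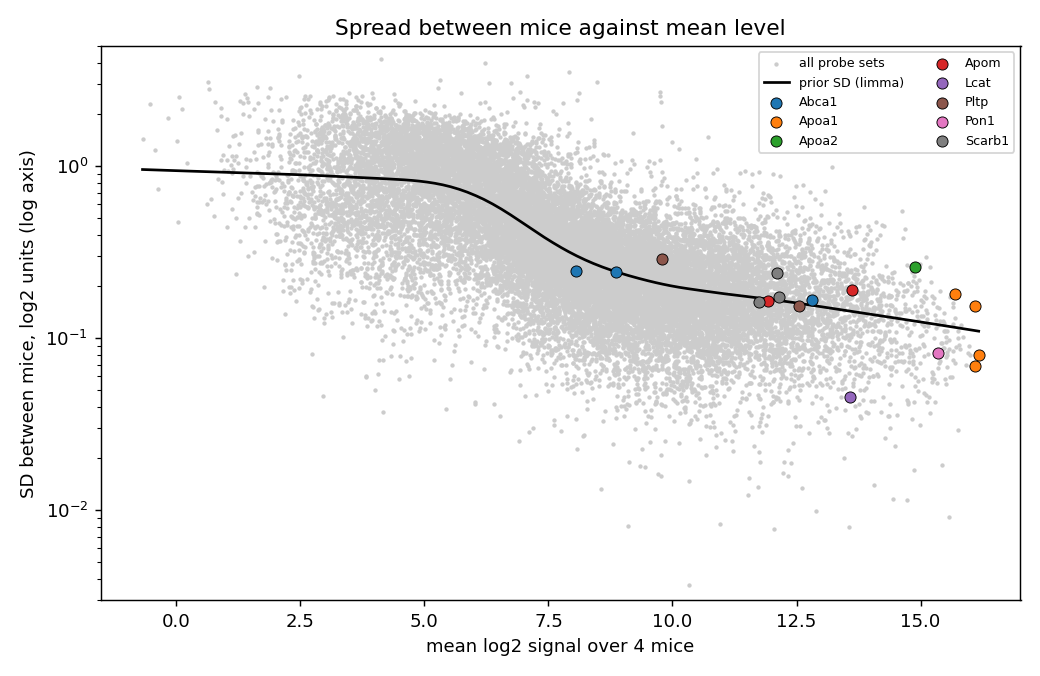
Standard deviation between the 4 mice (log2 units, log axis) against mean log2 signal for all 22626 probe sets (grey), with the prior SD from limma (line) and the 17 probe sets of the 8 genes (coloured). The Apoa2 point lies farthest above the line, at 2.05 times the prior, and the Lcat point farthest below it, at 0.32 times.

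Abca1, the exporter and the gene overexpressed by design, is read by 3 probe sets. On 1421840_at, the brightest, the log2 signals of mice 1 to 4 were 12.67, 12.68, 12.92 and 12.996. Mice 3 and 4 were the higher pair here, and the extremes differed by 1.25-fold. On 1421839_at the signals were 8.57, 9.07, 9.06 and 8.78, and on 1450392_at they were 7.90, 7.84, 8.39 and 8.09. Mouse 3 was above the mean of the other mice on 3 of 3 probe sets, and mouse 1 was below it on 3 of 3. Averaged over the probe sets, mouse 3 was 0.28 log2 (1.21-fold) higher than the other 3 mice, and mouse 1 stood at -0.27 from the others. The value of mouse 3 was 0.14 on 1421840_at, 0.26 on 1421839_at and 0.44 on 1450392_at. The mean level of 1450392_at, 8.06, was no higher than the array medians of 8.06 to 8.25. With arrays at the same median the averaged value of mouse 3 was 0.16. The probe sets did not place mouse 2 alike: it was the highest on 1421839_at and the lowest on 1450392_at. The log2 difference between 1421840_at and 1421839_at ran from 3.61 in mouse 2 to 4.21 in mouse 4, so these probe sets disagreed between mice by up to 0.60. The labels do not say which part of the transcript each probe set reads, or whether it reads the transgene.

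For genes with at least 2 probe sets, the variation between mice common to all of them was tested against the variation among them, moderated with limma and adjusted over 4956 genes. Abca1 did not pass (adjusted p = 0.61). None of the 5 members that could be tested passed (0 of 5), against 0.343% of all genes. An unadjusted p under 0.05 was found for 3 of the 5, namely Scarb1, Pltp and Apoa1, against 8.92% of genes. Over the alternatives, p (limma) was 0.0044 to 0.30 for Scarb1, 0.0085 to 0.85 for Pltp and 0.00065 to 0.33 for Apoa1. With a prior fitted without a trend, these were 0.081, 0.19 and 0.26. Over all genes 17 passed, a count of 2, 4, 0 and 2 without mice 1, 2, 3 and 4, and it was 55 with the arrays brought to a common median. Probe sets of 1 array share its RNA and hybridization, so the test does not separate animal from array.

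By a rule of likeness, the genes whose pattern over the 4 arrays came closest to that of Abca1 were Rab12, Eif4ebp2 and Patz1. The root mean square difference of their centred log2 signals from those of 1421840_at was 0.016, 0.019 and 0.020. The rule compared 15678 probe sets with an SD at least that of Abca1, and 301 of them came within 0.1, so many probe sets have much the same pattern over so few arrays.

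**Figure D2:**
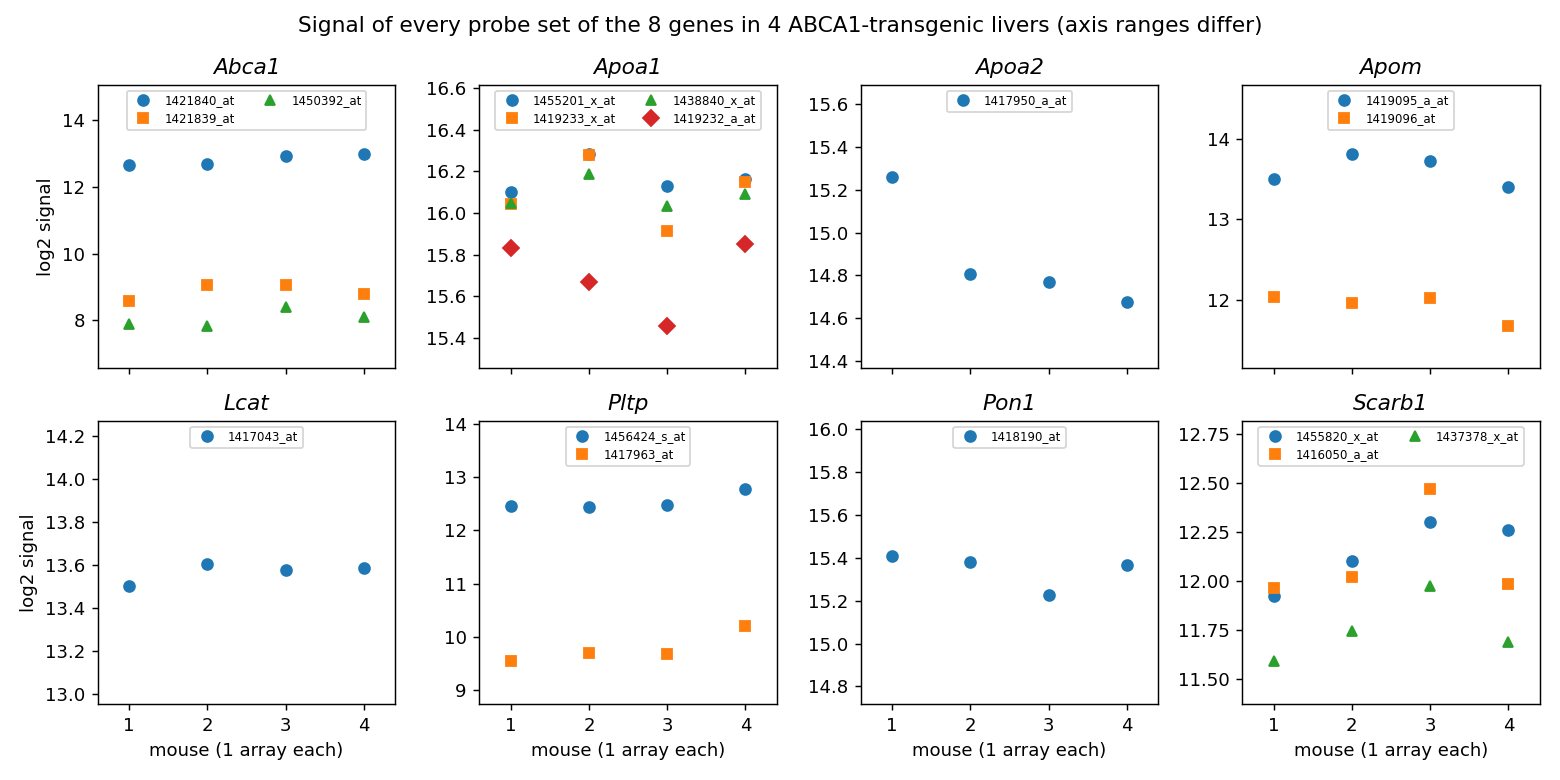
Log2 signal of each probe set of the 8 genes in mice 1 to 4, 1 panel per gene with its own axis range and 1 marker shape per probe set. Scarb1 is highest in mouse 3 on all 3 probe sets and Pltp highest in mouse 4 on both, while the Apoa1 probe set 1419232_a_at orders the mice unlike the others.

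Apoa1 encodes apolipoprotein A-I, the acceptor of the lipid that ABCA1 exports, and 1 of its probe sets, 1455201_x_at, held the highest signal of each of the 4 arrays. Its log2 signals were 16.10, 16.29, 16.13 and 16.16 in mice 1 to 4. On 1438840_x_at they were 16.05, 16.19, 16.03 and 16.09, and on 1419233_x_at 16.04, 16.28, 15.91 and 16.15. Mouse 2 was the highest on these 3 probe sets, whose SDs were 0.07 to 0.15. On 1419232_a_at the signals were 15.83, 15.67, 15.46 and 15.85, so mouse 2 was below mice 1 and 4 there. Relative to the mean of the 3 others, this probe set stood at -0.24 and -0.28 log2 in mice 1 and 4 and at -0.58 and -0.57 in mice 2 and 3. Mouse 3 lay below the mean of the other mice on 4 of 4 probe sets, with a mean difference of -0.17 log2 (0.89-fold), though mouse 1 was lower still on 1455201_x_at. The mean difference was -0.32 when probe sets ending in _s_at or _x_at, which can bind several transcripts, were left out, -0.29 with arrays at the same median, and -0.11 both after quantile normalization and with arrays shifted by the hepatocyte markers. Quantile normalization gives the top probe set of every array, 1455201_x_at, the same value on each by construction. That probe set then adds no difference to the mean. The shared difference did not pass (adjusted p = 0.50, limma). The lowest adjusted p over the alternatives was 0.053, with arrays at the same median. The 3 probe sets with an _x_at ending lay within 0.22 log2 of the highest signal of each array, which 1455201_x_at itself held. That distance does not show where the measuring scale ends, and whether these signals were saturated was not tested.

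Apoa2, which encodes the second most abundant HDL apolipoprotein, had the largest spread for its level. Its single probe set, 1417950_a_at, measured 15.26, 14.81, 14.77 and 14.68 in mice 1 to 4. Mouse 1 stood above the others, which lay within 0.13 of each other, and its signal was 0.51 log2 (1.42-fold) above their mean. The SD was 0.26, and the excess over the prior did not pass (adjusted p = 0.98, limma). Leaving out 1 of mice 2 to 4 gave 0.47 to 0.53 for mouse 1. Mouse 1 is also the array with the lowest Gapdh ratio, the highest 18S signal and the fewest muscle transcripts. The part of these in the Apoa2 value was not tested.

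Apom encodes the apolipoprotein that carries sphingosine 1-phosphate on HDL. On 1419095_a_at the signals were 13.50, 13.81, 13.72 and 13.40, and on 1419096_at 12.03, 11.96, 12.02 and 11.68. Mouse 4 was the lowest on both, with a mean difference of -0.30 log2 (0.81-fold) from the other 3, or -0.16 with arrays at the same median. In all, 30.0% of genes with 2 probe sets had both lowest in 1 mouse. The highest mouse differed between the probe sets, and the shared difference did not pass (adjusted p = 0.59, limma).

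Lcat, the plasma enzyme that esterifies HDL cholesterol, was the most even of the 8 genes. Its probe set 1417043_at measured 13.50, 13.60, 13.58 and 13.59, a mean of 13.57 ± 0.05 (SD, n = 4). Mouse 1 was the lowest, at -0.089 log2 from the others, a value that turned to 0.0083 when arrays were shifted by the hepatocyte markers. Pon1, a lactonase that HDL carries and the liver secretes, measured 15.41, 15.38, 15.23 and 15.36 on 1418190_at, a mean of 15.34 ± 0.08 (SD, n = 4). Mouse 3 was the lowest, at -0.16 log2 from the others. That value was -0.27 with arrays at the same median, -0.095 after quantile normalization and -0.098 with the hepatocyte shift. Neither gene passed the test of spread (adjusted p = 1.00 for Lcat and 0.99 for Pon1, limma).

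Pltp, the phospholipid transfer protein, was highest in mouse 4 on both probe sets. On 1456424_s_at the signals were 12.46, 12.44, 12.49 and 12.77, and on 1417963_at 9.54, 9.70, 9.69 and 10.20. Mouse 4 stood apart while the other mice lay within 0.05 of each other on the first and 0.15 on the second. Averaged, mouse 4 was 0.43 log2 (1.35-fold) above the other 3, and 0.40 to 0.57 over the alternatives. Both probe sets were highest in 1 mouse for 33.1% of genes with 2 probe sets. The shared difference did not pass (adjusted p = 0.53, limma), and F went from 4.58 to 0.17 without mouse 4. Macrophages also make PLTP, and of the 9 macrophage markers measured of 9 listed, 6 were above the mean of the others in mouse 4, with a median difference of 0.16 over the list. In mouse 3, 9 of 9 were above the mean of the others, with a median of 0.24, and Pltp there stood at -0.10 log2 from the others. The summed signal of these markers was 32737, 32179, 40841 and 39012 in mice 1 to 4, with none at 0. Their part in the Pltp value was not tested.

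Scarb1, the receptor that takes up HDL lipid, was highest in mouse 3 and lowest in mouse 1 on each of its 3 probe sets. The signals on 1416050_a_at were 11.96, 12.02, 12.47 and 11.99. On 1455820_x_at they were 11.92, 12.10, 12.30 and 12.26, and on 1437378_x_at 11.59, 11.74, 11.97 and 11.69. The gap between mouse 3 and the next mouse was 0.44 on the first and 0.04 on the second, so the lead of mouse 3 was uneven. Averaged, mouse 3 was 0.33 log2 (1.25-fold) above the other 3 mice and mouse 1 stood at -0.24. All probe sets were highest in 1 mouse for 12.3% of genes with 3 probe sets. The same mouse was highest, and the same mouse lowest, on all probe sets for 26 of 1191 genes with 3 probe sets (2.18%). Scarb1 had the lowest p of the 5 members tested and did not pass (adjusted p = 0.35, and 0.19 to 0.74 over the alternatives, limma). Without mouse 3, F went from 6.26 to 1.38. In mouse 3 all 9 macrophage markers were above the mean of the other 3 mice, by a median of 0.24, and the hepatocyte markers stood at a median of -0.05, with 2 of 7 higher. The part of these in the Scarb1 value was not tested. The Scarb1 value of mouse 3 was 0.39 with arrays shifted by the hepatocyte markers and 0.21 with arrays at the same median.

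**Figure D3:**
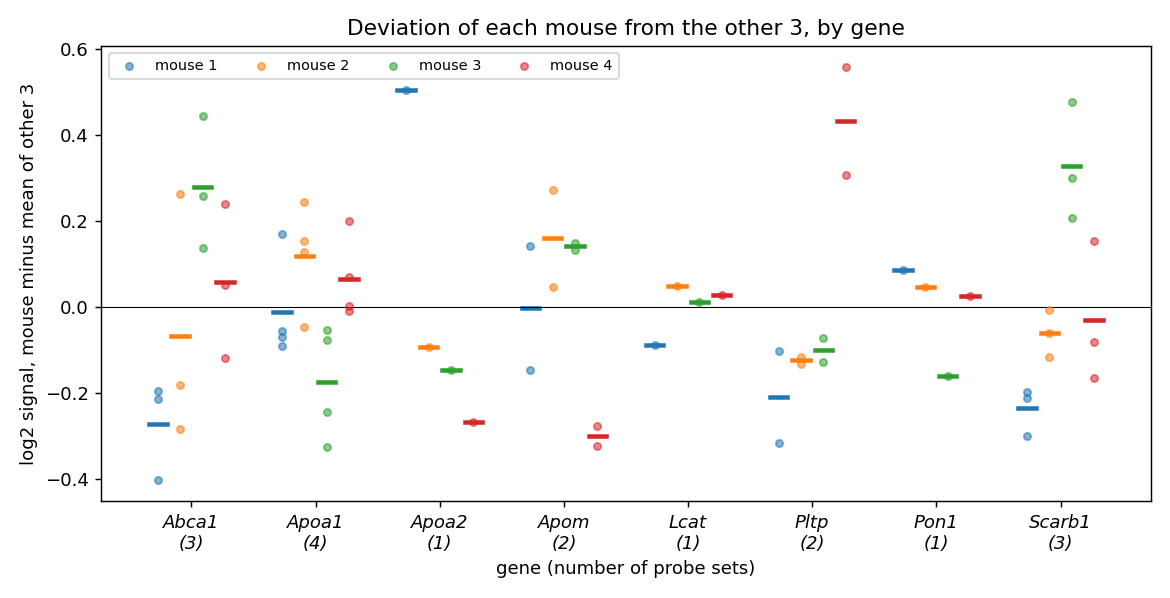
Log2 signal of each mouse minus the mean of the other 3, for each probe set (points) and averaged over the probe sets of a gene (bars), by gene and mouse. The bars for Apoa2 in mouse 1 (0.51) and Pltp in mouse 4 (0.43) are the highest, and those for Apom in mouse 4 (-0.30) and Abca1 in mouse 1 (-0.27) the lowest.

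The mice did not keep 1 order over the 8 genes. Of the 17 probe sets, 3, 6, 4 and 4 were highest in mice 1 to 4, against 19.7%, 29.5%, 32.3% and 18.5% of all probe sets. The lowest signal was in mice 1 to 4 for 8, 2, 4 and 3 of 17, against 27.0%, 20.7%, 20.8% and 31.6% of all probe sets. The 8 in mouse 1 were 2 of Abca1, 3 of Scarb1 and 1 each of Apoa1, Lcat and Pltp, so that probe sets of 1 gene make up much of the count. Abca1 and Scarb1 were both highest in mouse 3 and lowest in mouse 1 as means over their probe sets. For Abca1 the probe sets did not share this order. Mouse 2 was highest on 1421839_at, mouse 4 on 1421840_at and mouse 3 on 1450392_at. On 2 of the 17 probe sets, 1 each of Scarb1 and Pltp, 1 mouse lay far enough from the other 3 to count as an outlier by Dixon's ratio, against 5.90% of all probe sets.

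The wider HDL pathway was described with 46 other genes listed by role, of which 40 were measured. No listed gene passed the test of spread (0 of 40), and no other probe set did either, so this count does not show evenness. An unadjusted p under 0.05 was found for 3 of 40 (7.50%), against 3.71% of all probe sets. These 3, named after their values were seen, were Saa1, Saa2 and Cd36. The median SD was 0.20 log2, and 1.06 times the prior. It was 0.13, 0.17, 0.15 and 0.22 without mice 1, 2, 3 and 4. Over all probe sets, leaving out 1 mouse gave a median SD of 0.27 to 0.29, against 0.30 with every mouse.

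Among the 13 other HDL apolipoproteins the median SD was 0.10. Apoc1, an activator of LCAT, was the most even, at 14.44, 14.38, 14.31 and 14.46 in mice 1 to 4. Saa2, an acute phase apolipoprotein, was the widest, at 9.92, 8.67, 8.72 and 8.47, and Saa1 measured 12.99, 12.05, 11.99 and 11.96. Both were higher in mouse 1 than in the others, whose values lay close together. Saa1 and Saa2 are near-identical copies, so their probe sets may read each other's transcripts. Mouse 1 had the highest signal of 6 of the 13 apolipoproteins, against 19.7% of all probe sets. Saa1, Saa2 and Saa4 were among the 6, so related genes make up much of the count.

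The other exporters were ABCG1, ABCG4 and ABCA7. Abca7 measured 6.62, 6.46, 7.57 and 7.60 and Abcg4 9.13, 9.01, 9.38 and 9.10. All 3 genes were higher in mouse 3 than the mean of the other mice, though Abca7 was highest in mouse 4. Mouse 3 also had the highest array median, 0.09 log2 above the mean of the medians. It held the highest signal of 32.3% of all probe sets. Of 9 remodelling genes measured, Pon2, an intracellular relative of PON1, was the widest at 10.27, 9.32, 9.71 and 9.53. Furin, a protease that cleaves proproteins including lipases, was the most even, at 10.05, 10.15, 9.98 and 9.98. Of 8 regulators of the member genes measured, Srebf2 was the widest, at 9.12, 9.92, 9.52 and 9.09. Hnf4a, a driver of hepatocyte genes such as Apoa1, was the most even, at 14.22, 14.29, 14.19 and 14.28.

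Among 7 receptors and adaptors measured, Cd36, a scavenger receptor of the same family as SR-BI, was lowest in mouse 3 on each of 3 probe sets. The signals on 1423166_at were 11.95, 11.56, 10.93 and 12.24 in mice 1 to 4. They were 11.01, 10.42, 10.08 and 10.91 on 1450883_a_at and 8.72, 8.62, 8.02 and 8.88 on 1450884_at. Averaged, mouse 3 stood at -0.80 log2 from the other mice, which were 1.74-fold higher. Cd36 was the 1 of 17 listed genes with several probe sets that passed the test of a shared difference (adjusted p = 0.035, limma; 0.0069 to 0.64 over the alternatives). The call was lost without any 1 mouse, with adjusted p of 0.16, 0.073, 0.64 and 0.13 without mice 1 to 4, and with the prior fitted without a trend (0.38). It was also lost without the probe sets ending in _s_at or _x_at (0.058). No Cd36 probe set has such an ending, so its own values were unchanged, and F was 20.2 against 20.4. The genes tested then numbered 4085, against 4956. CD36 is also made by muscle, fat and macrophages. The summed muscle marker signal was 440 in mouse 1 and 7847, 5474 and 6991 in mice 2 to 4, so mouse 3 had the lowest after mouse 1. In mouse 1 the averaged Cd36 signal stood at 0.37 log2 from the other mice. Against the mean of the other 3 mice, which includes mouse 1, mouse 3 was a median of 1.15 higher in the muscle markers (6 of 6). It was likewise 0.24 higher in the macrophage markers (9 of 9) and 0.05 higher in the adipocyte markers (2 of 3). The part of these in the Cd36 value was not tested. Scarb1 lay the other way in that mouse, and the difference between the 2 genes was not tested. In the same role Cubn was the widest gene, at 3.31, 6.53, 5.55 and 5.80, near the low end of the scale, and Atp5b the most even, at 14.20, 14.33, 14.21 and 14.12.

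**Figure D4:**
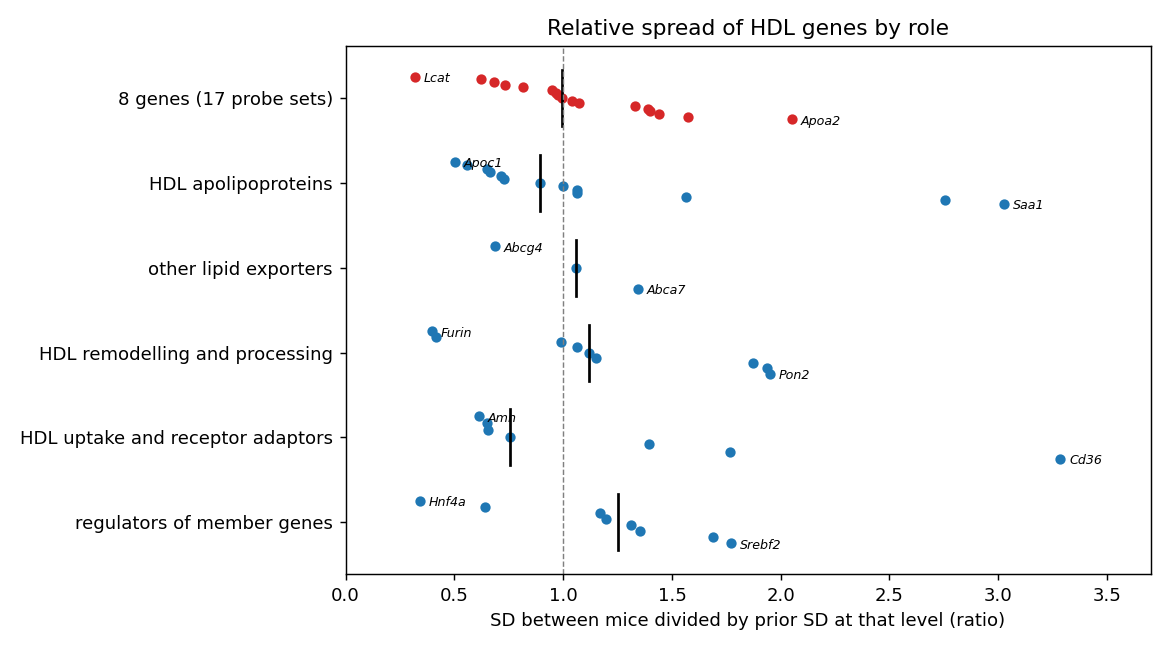
SD between the 4 mice divided by the prior SD at the same level, for the 17 probe sets of the 8 genes (red) and for the other HDL genes by role (blue, 1 probe set per gene), with medians as black bars and the first and last gene of each row named. Saa1 (3.02) and Cd36 (3.29) lie farthest to the right, and no gene shown passed the test of spread.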

How the data were processed

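Total RNA of 4 livers, 2 ug each, was amplified and hybridized with 1 array per sample, per the labels' protocols. The deposited values are 1 linear signal intensity per probe set and array. RMA is named in the submitters' processing notes, with no version. The intensities reach down to 0.1 and have the same trimmed mean on every array; these traits are not typical of RMA output, and the sources used here do not give the step that made them. Here log2 was taken with no pseudocount and no further normalization, and 64 control probe sets were left out, leaving 22626. Of these, 20380 have 1 symbol in the platform annotation, 691 several and 1555 none; RefSeq identifiers changed 0 symbols.

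The test of spread compared each variance with a robust trended prior, and the shared-difference test set the mouse mean square against the moderated residual, in limma 3.58.1 under R 4.3.3. Both used Benjamini-Hochberg adjustment with a threshold of 0.05. They were also run on simulated data with independent noise drawn from the fitted prior. Those data lack the array shifts of the real ones, so the run does not show how the tests behave on these arrays. The number of arrays limits the precision. The members and lists were chosen with earlier results of these data known. Named are all members, the widest and most even gene of each role, any listed gene past a test and the 3 genes nearest to Abca1; Saa1 was named after its values were seen. Where 1 value per gene was needed, its brightest probe set was used. Alternatives were other normalizations, a pseudocount of 16, a floor of 64, filters, other priors and leaving out each mouse. A further item of the genotype and its gene are not reported here.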

Additional observations from a re-analysis of the deposited data

Results flagged for a closer look

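On 2 of the 17 member probe sets 1 mouse stood apart from the other 3 by Dixon's ratio of its gap to the whole range. For Scarb1 on 1416050_a_at the ratio was 0.88, with mouse 3 at 12.47 and the others at 11.96 to 12.02. For Pltp on 1456424_s_at it was 0.86, with mouse 4 at 12.77 and the others at 12.44 to 12.49. Chance gives such a ratio in about 1 in 20 groups, and 5.90% of all probe sets had one.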

How the results depend on the processing

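Over 15 settings 0 member probe sets passed the test of spread and 0 member genes the test of a shared difference. Member probe sets with an unadjusted p under 0.05 numbered 1 with arrays shifted by the hepatocyte markers, and 0 to 1 when 1 mouse was left out. Over all probe sets, 6 passed the test of spread without the probe sets of lowest level, where fewer are tested. The 17 genes past the shared-difference test became 55 with arrays at the same median, 44 without the probe sets of lowest level, 33 with arrays shifted by the hepatocyte markers, 2 without _s_at and _x_at probe sets, 0 with a prior without trend, and 0 to 4 with 1 mouse left out, where fewer samples are tested. For Cd36 the F of 20.4 was 20.2 without _s_at and _x_at probe sets, 15.6 with a prior without trend, and 6.29 to 30.5 with 1 mouse left out, and these no longer passed. No Cd36 probe set has either ending, so that filter left its own values unchanged. Listed genes with an unadjusted p under 0.05 went from 3 to 0 with a prior without trend and to 1 to 3 with 1 mouse left out.

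Lcat in mouse 1 changed sign, from -0.089 to 0.0083, with arrays shifted by the hepatocyte markers, and was -0.14 after quantile normalization and -0.021 with arrays at the same median. With arrays at the same median, mouse 3 was at -0.29 for Apoa1 and -0.27 for Pon1, and without _s_at and _x_at probe sets Apoa1 was at -0.32. As deposited, the array medians lie -0.05, 0.07, 0.09 and -0.11 from their mean, which that alternative removes, whereas over the probe sets of highest level they lie -0.011 to 0.016 from it. Removing them also gave 0.16 for Abca1 and 0.21 for Scarb1 in mouse 3 and -0.16 for Apom in mouse 4. Apart from these array shifts, the cause of each change was not tested. The largest deviations of the other 5 members kept their sign in each alternative that could be run; leaving out the mouse itself gives none, and without _s_at and _x_at probe sets Apoa1, Scarb1 and Pltp have too few probe sets for the shared test. The shifts over the probe sets of highest level and by the hepatocyte markers were chosen after seeing the data. No paired analysis was possible because there is 1 group.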
